A study of Homo sapiens with 4 samples.

Results

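The 10 genes described here encode the enzymes that make, lengthen, desaturate and activate fatty acids: ACLY, ACSS2, ACACA, FASN, ELOVL6, SCD, ELOVL5, FADS2, FADS1 and ACSL3. They were chosen by name for their place in the pathway, out of 60617 genes in the table, with earlier results of these data known. The shares of all tested genes given below thus describe the background and are not an independent test of the choice. All 10 were present and passed the count filter. RNA-seq measured their transcripts in A673 cells, a human line of Ewing sarcoma driven by a fusion of EWSR1 to FLI1. CBL0137-treated cells received the compound at 1 µM for 24 h, and the cells set against them received the vehicle DMSO for as long. Of the curaxin class, CBL0137 binds DNA and thereby holds FACT, a histone chaperone, on chromatin. Both groups were the same line, grown in high-glucose medium with fetal bovine serum. Each group had 2 libraries, and the labels do not say that these were separate cultures, so the p-values reflect variation among 4 libraries that could be purely technical. The reads on genes numbered from 20483714 to 23373554 per library, and mitochondrially encoded transcripts took from 5.82% to 5.92% of them.

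Cells build fatty acids in the cytosol from acetyl-CoA, which ACLY splits from citrate and ACSS2 makes from acetate. ACACA carboxylates it to malonyl-CoA, FASN joins these units into palmitate, ELOVL6 lengthens palmitate, and SCD puts in the double bond of oleate. FADS2 and FADS1 desaturate polyunsaturated fatty acids from the diet or serum, ELOVL5 lengthens them, and ACSL3 couples fatty acids to coenzyme A for use in lipids. Many of these genes are known targets of the SREBP transcription factors, which also drive sterol synthesis.

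After CBL0137, transcripts of FASN and ACSS2 fell, and ACLY did not pass the test in either direction. FASN averaged 752 ± 24.2 CPM in CBL0137 and 1379 ± 39.4 CPM in DMSO, and ACSS2 averaged 34.2 ± 3.04 CPM in CBL0137 and 54.5 ± 0.433 CPM in DMSO (mean ± SD, n = 2 per group). CPM is a library's count scaled to a common depth, with TMM factors applied. The other 7 enzymes were lower by smaller amounts, down to 70.6% of the DMSO mean for FADS2 and 89.1% for ACSL3. A gene was called at an edgeR adjusted p under 0.05 over all 17309 tested genes and a change of more than 1.5-fold, the cut-offs that the submitters state. By that rule 2 of the 10 were lower, 0 higher and 8 not called, against 2.73% of all tested genes called lower, 6.88% called higher and 9.61% in either direction. DESeq2, limma-voom and the fit with a replicate block called the same 2 genes, against 2.19%, 2.72% and 2.59% of their tested genes called lower, and 0 of the 10 were higher with DESeq2, with limma-voom or at an unadjusted edgeR p under 0.05. With the fold limit set aside, 9 of the 10 were lower at an edgeR adjusted p under 0.05, against 19.0% of all tested genes lower and 36.5% passing in either direction. All 10 enzymes had a mean above 20 CPM, where more genes pass that test: 32.2% of the 8179 tested genes at such levels were lower by it, and 2.32% were called lower. The median log2 fold change was -0.30 over the 10 and 0.003 over all tested genes. In bulk RNA, less RNA per cell and fewer cells expressing a gene cannot be told apart.

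**Figure D1:**
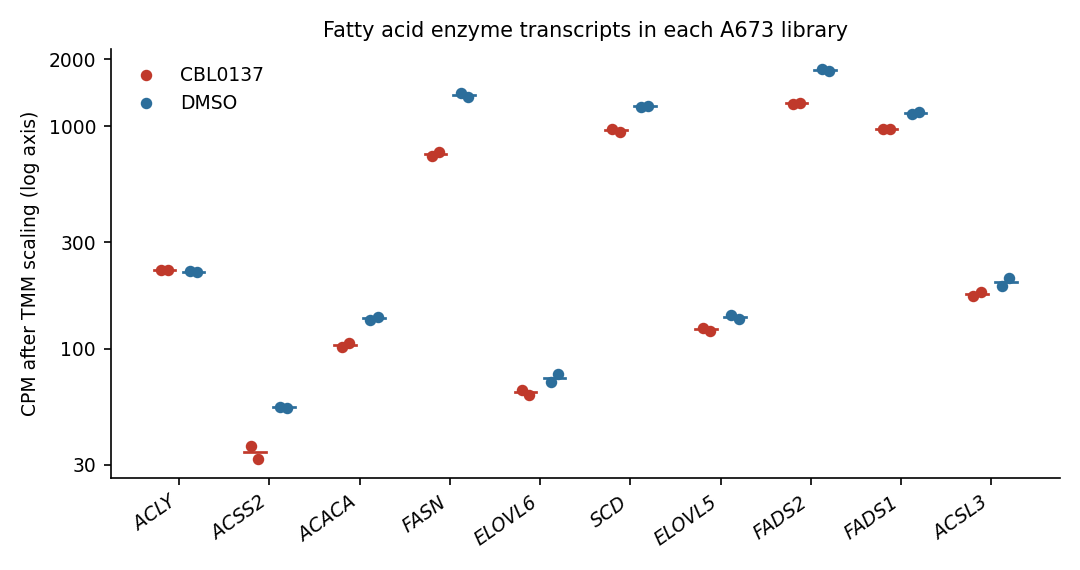
CPM after TMM scaling (log axis) of each enzyme in the 2 CBL0137 libraries (red) and the 2 DMSO libraries (blue), with points for libraries and short lines for group means. FASN stands at 734 and 769 in CBL0137 against 1407 and 1351 in DMSO, and ACLY lies at about the same height in all 4 libraries.

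Promoter sequences are shown for SCD and FADS2, desaturases that are among the most abundant of these transcripts, and for ACLY, the enzyme that was not lower. Each run is the 250 bases before an annotated start in the RefSeq table for GRCh38.p14, 5′ to 3′ on the gene's strand. Each was placed by exact match at a single position in GRCh37: chr10:102106740-102106989 on the plus strand, chr11:61583425-61583674 on the plus strand and chr17:40075276-40075525 on the minus strand. Capitals mark the CCAAT box (CCAAT, bound by NF-Y) and the GC box (GGGCGG, bound by SP1), read on both strands.
SCD: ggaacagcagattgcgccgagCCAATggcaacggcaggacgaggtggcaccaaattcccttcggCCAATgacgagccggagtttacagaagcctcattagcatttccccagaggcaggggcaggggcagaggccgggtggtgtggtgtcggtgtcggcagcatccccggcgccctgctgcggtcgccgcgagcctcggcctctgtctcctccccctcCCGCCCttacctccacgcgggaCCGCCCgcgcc
FADS2: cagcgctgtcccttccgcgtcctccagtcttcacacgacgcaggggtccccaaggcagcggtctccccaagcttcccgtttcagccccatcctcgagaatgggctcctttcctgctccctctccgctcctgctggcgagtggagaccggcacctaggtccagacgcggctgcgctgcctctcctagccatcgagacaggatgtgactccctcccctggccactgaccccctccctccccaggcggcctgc
ACLY: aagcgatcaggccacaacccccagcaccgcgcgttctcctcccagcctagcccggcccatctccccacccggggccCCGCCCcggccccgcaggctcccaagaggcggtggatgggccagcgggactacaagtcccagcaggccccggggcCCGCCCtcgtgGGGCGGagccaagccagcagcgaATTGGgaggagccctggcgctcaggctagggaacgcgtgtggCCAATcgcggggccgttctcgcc
The SCD window holds 2 CCAAT boxes and 2 GC boxes, the ACLY window 2 CCAAT boxes and 3 GC boxes, and the printed FADS2 window neither, while a second FADS2 window, not printed, holds 1 GC box. The table holds 14 such windows for 9 of the enzymes, and none for FASN. Some lie partly in annotated exons of the same gene, by 229 of the 250 bases in ELOVL5, 194 in FADS1 and 148 in the second FADS2 window. The printed windows share 0 bases with such exons. Windows of 1 gene can overlap, as those of ACLY do by 179 bases and those of FADS2 by 49, so genes were counted. Of the 9 enzymes, 6 hold a CCAAT box and 8 a GC box in at least 1 window, against 10102 and 12625 of all 27305 genes in the table. All those genes together have 35116 windows. They were not matched to the enzymes in windows per gene, gene type or GC content, so enrichment was not tested. The E-box CACGTG, read once since it is its own reverse complement, is in ELOVL5 alone, against 7.73% of all genes. The sterol regulatory element TCACNCCAC, read on both strands with N as any base, is in 0 of the 9, against 1.09% of all genes. Matches of different motifs share no letters in these windows, but some GC boxes in ACACA windows overlap each other. A match describes these letters and does not show binding, and 0 matches says no more than that the letters are not in these windows.

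Of the 2 enzymes that supply acetyl-CoA, the transcript of ACSS2 was called lower and that of ACLY was not called. ACLY (ENSG00000131473, chromosome 17, 40023170 to 40086795 in GRCh37) measured 225 and 226 CPM in CBL0137, against 223 and 220.0 CPM in DMSO. The groups do not overlap, as 33.5% of tested genes also did not in that direction, but the difference is 1.02-fold (log2 fold change 0.02 ± 0.04 SE, edgeR adjusted p = 0.664). ACSS2 (ENSG00000131069, chromosome 20, 33459949 to 33515765) measured 36.3 and 32.0 CPM in CBL0137, against 54.8 and 54.2 CPM in DMSO, from 763 and 742 counts against 1252 and 1220 counts. Both CBL0137 libraries lie below both DMSO libraries, and ACSS2 fell to 62.7% of the DMSO mean (-0.67 ± 0.07, edgeR adjusted p = 1.18e-08). Among the tested genes, 3.58% had a lower log2 fold change than ACSS2.

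Of the enzymes that build the chain, FASN changed most. FASN (ENSG00000169710, chromosome 17, 80036214 to 80056170) had 15422 and 17803 counts in CBL0137 libraries, against 32148 and 30425 counts in DMSO libraries. It fell to 54.5% of the DMSO mean (-0.88 ± 0.03, edgeR adjusted p = 2.25e-16), and 1.66% of tested genes had a lower log2 fold change. ACACA (ENSG00000278540, chromosome 17, 35441927 to 35766927), whose product feeds FASN, measured 102 and 106 CPM in CBL0137, against 135 and 139 CPM in DMSO. The ACACA groups stand apart, and the change stayed inside the fold limit (-0.40 ± 0.05, edgeR adjusted p = 9.54e-08). ELOVL6 (ENSG00000170522, chromosome 4, 110967002 to 111120355) measured 65.1 and 62.0 CPM in CBL0137, against 70.9 and 76.9 CPM in DMSO. The gap between its groups is about as wide as that between its DMSO libraries, the change was inside the fold limit (-0.22 ± 0.06, edgeR adjusted p = 0.00315), and without DMSO replicate 2 it no longer passed (-0.17, edgeR adjusted p = 0.0786).

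The desaturases were abundant and lower, inside the fold limit. SCD (ENSG00000099194, chromosome 10, 102106990 to 102124583), which makes monounsaturated fatty acids, measured 972 and 946 CPM in CBL0137, against 1221 and 1233 CPM in DMSO. The groups lie well apart for their spread, and the log2 fold change was -0.36 ± 0.03 (edgeR adjusted p = 7.47e-10). FADS2 (ENSG00000134824, chromosome 11, 61560452 to 61634826), the first desaturase of the polyunsaturated path, measured 1261 and 1270.2 CPM in CBL0137, against 1813 and 1771 CPM in DMSO. Its difference was the largest of the 8 enzymes that were not called (-0.50 ± 0.03, edgeR adjusted p = 8.03e-13). FADS1 (ENSG00000149485, chromosome 11, 61567099 to 61596790), which acts later in the same path, measured 971 and 972 CPM in CBL0137, against 1139.6 and 1159 CPM in DMSO. Its change was about the size of that of ELOVL6 but with less spread (-0.24 ± 0.03, edgeR adjusted p = 4.31e-07).

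ELOVL5 and ACSL3 had the smallest differences among the 9 that were lower. ELOVL5 (ENSG00000012660, chromosome 6, 53132196 to 53213977) measured 124 and 120.1 CPM in CBL0137, against 141 and 136 CPM in DMSO. The groups do not overlap, and the log2 fold change was -0.19 ± 0.04 (edgeR adjusted p = 0.00161). ACSL3 (ENSG00000123983, chromosome 2, 223725660 to 223809357) measured 173 and 181 CPM in CBL0137, against 190.2 and 207 CPM in DMSO. The gap between its groups is smaller than the gap between its DMSO libraries (-0.17 ± 0.04, edgeR adjusted p = 0.00369), and the test was not passed without DMSO replicate 2 (-0.11, edgeR adjusted p = 0.135). Over all the enzymes, CBL0137 libraries lay below DMSO libraries without overlap in 9 of 10, against 33.4% of tested genes and 46.2% of those averaging 20 CPM or more.

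**Figure D2:**
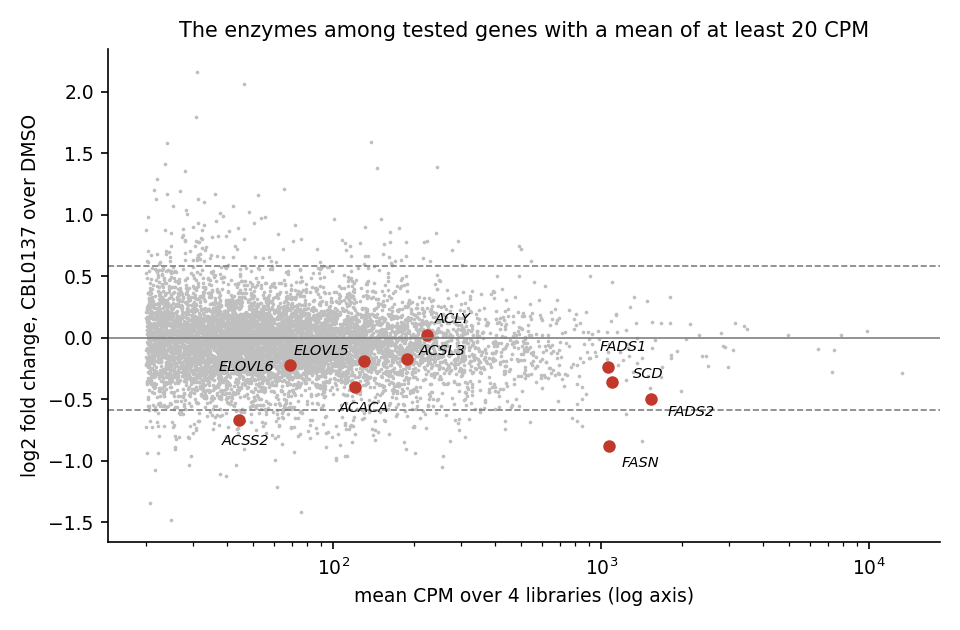
Log2 fold change of CBL0137 over DMSO against mean CPM (log axis) for the 8179 tested genes that average 20 CPM or more, with the 10 enzymes in red and dashed lines at the 1.5-fold limit. FASN (-0.88) and ACSS2 (-0.67) lie below the lower line, and FASN, FADS2, SCD and FADS1 lie at the abundant end.

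The differences were unequal, so the proportions of the transcripts within a library shifted. For every 100 ACLY counts there were 327 and 341 FASN counts in CBL0137 libraries, against 631 and 614 in DMSO libraries. For every 100 FASN counts there were 132 and 123 SCD counts in CBL0137 libraries, against 86.8 and 91.3 in DMSO libraries. SCD counts were thus above FASN counts in both CBL0137 libraries and in neither DMSO library. By the deposited FPKM, which is scaled by gene length, SCD was above FASN in every library. For every 100 FADS1 counts there were 130 and 131 FADS2 counts in CBL0137 libraries, against 159 and 153 in DMSO libraries. These are counts not scaled by gene length, so they compare groups and not the levels of 2 genes. Together the 10 genes took 0.478% and 0.475% of gene counts in CBL0137, against 0.625% and 0.621% in DMSO.

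Levels of different genes were compared by the deposited FPKM, fragments scaled by gene length and depth. FADS2 was highest, at 360 and 375 FPKM in CBL0137 and 502 and 488 FPKM in DMSO. FADS1, SCD, FASN, ACLY, ACSL3, ELOVL5, ELOVL6, ACSS2 and ACACA followed, in the same order by mean in both groups. FADS1 stood at 162 and 165 FPKM in CBL0137 and at 181 and 184 in DMSO, and SCD at 123 and 121 in CBL0137 and at 149 and 148 in DMSO. ACSL3 and ELOVL5 overlapped in DMSO, at 32.6 and 34.1 FPKM against 33.7 and 29.9 FPKM, so their order there is not beyond the spread. In DMSO, ELOVL6 (13.5 and 15.3 FPKM) and ACSS2 (13.5 and 11.7 FPKM) met at their edges. The order rests on how length is counted: by CPM per kilobase of merged exons, a setting added after the data were seen, SCD led at 183 in CBL0137 and 234 in DMSO, ahead of FADS2 at 120.0 in CBL0137 and 170 in DMSO.

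The deposited FPKM gave smaller or opposite changes for some enzymes. FASN had 61.2 and 65.8 FPKM in CBL0137, against 115 and 108 FPKM in DMSO, and limma-trend on log2(FPKM + 1) called it lower (-0.80, adjusted p = 0.0137). ACSS2 had 6.31 and 9.10 FPKM in CBL0137, against 13.5 and 11.7 FPKM in DMSO, a similar size of change that did not pass there (-0.66, limma adjusted p = 0.0784). Thus 1 of 10 was called lower on this scale, against 1.34% of genes tested on it, and FASN, SCD and FADS2 were lower with the fold limit set aside, against 5.36%. The FPKM groups lay apart and lower for 5 of the 10 (23.5% of tested genes), overlapped for 4 and lay apart and higher for ACLY. ACACA had 4.98 and 5.91 FPKM in CBL0137, against 6.07 and 3.65 FPKM in DMSO. Its DMSO libraries differ by more in FPKM than in counts, which were 3081 and 3136 there against 2136 and 2452 in CBL0137, and its log2 fold change turned to 0.16 (limma adjusted p = 0.647). ACSL3 turned as well, to 0.03 (limma adjusted p = 0.759), with 33.2 and 34.8 FPKM in CBL0137 against 32.6 and 34.1 FPKM in DMSO. No source used here names the tool behind the FPKM, and the cause of these differences was not tested.

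**Figure D3:**
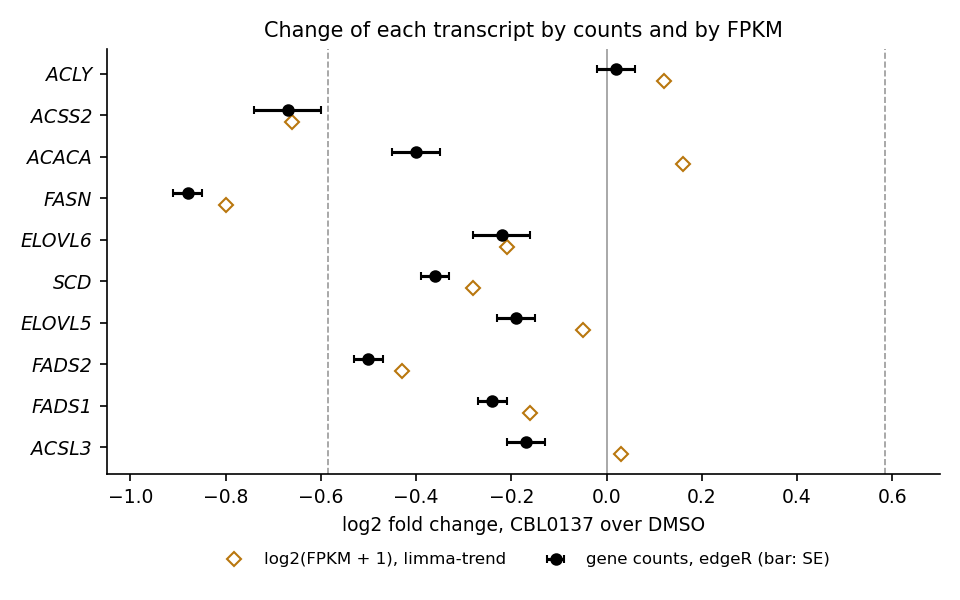
Log2 fold change of CBL0137 over DMSO for each enzyme from gene counts (edgeR, black, bars are SE) and from log2(FPKM + 1) (limma-trend, open diamonds), with dashed lines at the 1.5-fold limit. The scales place FASN at -0.88 and -0.80, while ACACA stands at -0.40 by counts and 0.16 by FPKM.

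On chromosome 11, the annotated span of FADS1 lies wholly inside that of FADS2 on the opposite strand, and FADS3, a relative of both, lies next to them. Their annotated exons share 490 bases, 4.79% of those of FADS1 and 4.64% of those of FADS2, and the sources used here do not say whether the libraries kept strand. FADS2 also shares 49 bases with FEN1, the flap endonuclease of DNA replication, which measured 129 and 128 CPM in CBL0137, against 174 and 176 CPM in DMSO. FEN1 was lower inside the fold limit (-0.45 ± 0.04, edgeR adjusted p = 3.29e-09), close in size to FADS2. FADS3 measured 123 and 129 CPM in CBL0137, against 116 in both DMSO libraries (0.12 ± 0.04, edgeR adjusted p = 0.0439). MYRF on the left (0.40 ± 0.06) and RAB3IL1 on the right (0.37 ± 0.05) of the stretch were higher inside the fold limit, with edgeR adjusted p of 1.02e-05 and 9.89e-07, and TMEM258 stood at -0.20 ± 0.09 (edgeR adjusted p = 0.107). So neighbours in this stretch went both ways. FADS1 also holds the microRNA gene MIR1908 on its own strand. The other exon overlaps were with opposite-strand genes, at 2.995% of exon bases in ACLY, 3.30% in ELOVL6 and 2.79% in ACSL3, and the ACSL3 partner, ACSL3-AS1, had at most 2 counts in a library.

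Genes around the pathway were described by lists, each by its count and its median beside the 0.003 of all tested genes. EdgeR called 2.73% of all tested genes lower and 6.88% higher. At an unadjusted edgeR p under 0.05, which is quoted where few genes were called, 22.8% of all tested genes were lower and 22.0% higher. Of 10 genes that supply citrate, malonyl-CoA and NADPH, edgeR, DESeq2 and limma-voom called 0, and edgeR gave 7 at an unadjusted p under 0.05, 6 of them lower (median log2 fold change -0.18). SLC25A1, which carries citrate out of mitochondria, measured 70.1 and 69.0 CPM in CBL0137, against 92.0 and 92.6 CPM in DMSO (-0.41 ± 0.05, edgeR adjusted p = 3.61e-07). The citrate-making CS was also lower inside the fold limit (-0.24 ± 0.04, edgeR adjusted p = 5.98e-06). Of 13 tested genes of other elongases, desaturases and the shared elongation cycle, HACD1 rose (0.60 ± 0.10, edgeR adjusted p = 2.33e-05), 0 fell and 12 were not called (median -0.01). HACD1, a dehydratase of the elongation cycle, had 420 and 459 counts in CBL0137, against 306 and 291 counts in DMSO, and without DMSO replicate 2 it fell short of the fold limit (0.56). At an unadjusted edgeR p under 0.05, 3 of these 13 were lower and 3 higher, and DESeq2 called 0 lower.

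Of 7 tested other acyl-CoA synthetases and fatty acid transporters, edgeR, DESeq2 and limma-voom called 0, and edgeR gave 2 at an unadjusted p under 0.05 (median 0.11). By that p, 22.8% of all tested genes were lower and 22.0% higher. ACSL4, which favours arachidonate, was lower in counts (-0.33 ± 0.05, edgeR adjusted p = 1.1e-05) but measured 0.09 on the log2(FPKM + 1) scale. ACSL1 measured 13.5 and 9.02 CPM in CBL0137, against 8.93 and 8.17 CPM in DMSO (0.39 ± 0.15, edgeR adjusted p = 0.0443), and it rests on CBL0137 replicate 1. Without that library ACSL1 stood at 0.07 (edgeR adjusted p = 0.776), without DMSO replicate 2 at 0.32 (0.124), and without CBL0137 replicate 2 it passed the fold limit (0.66), while DESeq2 gave an adjusted p of 0.229. The third by adjusted p, the transporter SLC27A4, stood at 0.11 ± 0.07 (edgeR adjusted p = 0.215). Of 10 genes of the separate mitochondrial synthesis path, edgeR, DESeq2 and limma-voom called 0, with 3 at an unadjusted edgeR p under 0.05 (median 0.00). HSD17B8 (-0.50 ± 0.15, edgeR adjusted p = 0.0111) and the acyl carrier NDUFAB1 (-0.16 ± 0.05, 0.0128) were lower inside the fold limit, and MCAT, which loads malonate, stood at 0.18 ± 0.08 (0.0936). HSD17B8 went either way with a library left out: it passed the fold limit without CBL0137 replicate 2 (-0.74) or DMSO replicate 2 (-0.60), and missed the edgeR adjusted p without CBL0137 replicate 1 (-0.32, 0.149) or DMSO replicate 1 (-0.42, 0.0742). NDUFAB1 missed it without DMSO replicate 1 (-0.11, edgeR adjusted p = 0.255). DESeq2 gave adjusted p of 0.115 for HSD17B8 and 0.0688 for NDUFAB1.

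**Figure D4:**
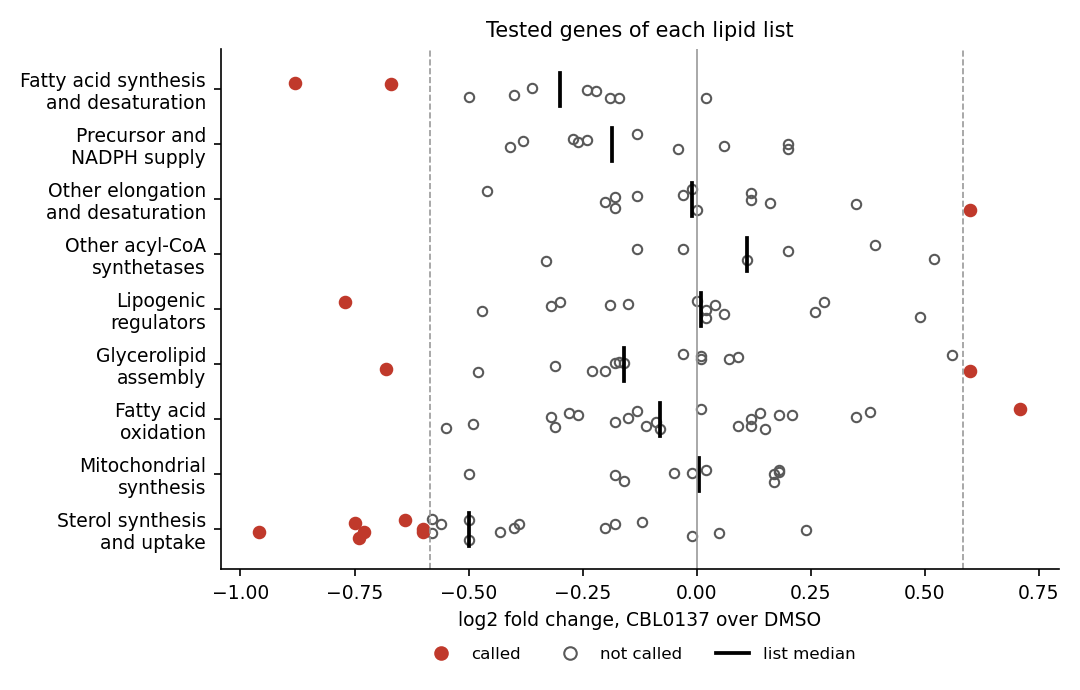
Log2 fold change of CBL0137 over DMSO for the tested genes of each list (vertical jitter is for display), with called genes in red, other genes as open circles, list medians as bars and dashed lines at the 1.5-fold limit. The medians are -0.30 for the fatty acid enzymes, -0.50 for sterol genes and -0.08 for fatty acid oxidation.

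Of 14 tested regulators of lipid synthesis, INSIG1 fell, 0 rose and 13 were not called (median 0.01), and DESeq2 called 0 higher. The shares of all tested genes were 2.73% called lower and 6.88% called higher. At an unadjusted edgeR p under 0.05, 6 of the 14 were lower and 3 higher, against 22.8% and 22.0% of all tested genes. INSIG1, which holds SREBP precursors in the endoplasmic reticulum and is itself an SREBP target, measured 64.1 and 64.8 CPM in CBL0137, against 111 and 109 CPM in DMSO. SREBF1, which encodes the SREBP most tied to fatty acid genes, measured 201 and 214 CPM in CBL0137, against 256 and 254 CPM in DMSO. SREBF2, its relative most tied to sterol genes, measured 328 and 348 CPM in CBL0137, against 414 and 428 CPM in DMSO. Both were lower inside the fold limit, SREBF1 at -0.30 ± 0.04 (edgeR adjusted p = 1.17e-06) and SREBF2 at -0.32 ± 0.04 (edgeR adjusted p = 1.52e-07).

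Sterol genes, which share regulators with the fatty acid enzymes, had lower values as a list. Of 21 tested, 7 fell, 0 rose and 14 were not called, against 2.73% of all tested genes called lower. With the fold limit set aside, 18 were lower at an edgeR adjusted p under 0.05, against 19.0% of all tested genes and 32.2% of those averaging 20 CPM or more (median log2 fold change -0.50). In the other direction, 1 sterol gene was higher at an unadjusted edgeR p under 0.05, and DESeq2 and limma-voom called 0 higher. Limma-trend on log2(FPKM + 1) called 5 sterol genes lower, against 1.34% of genes tested on it. It called 1 sterol gene higher, against 388 of 14139 genes. The enzymes HMGCS1 (-0.96 ± 0.05), ACAT2 (-0.75 ± 0.06), MSMO1 (-0.74 ± 0.05), IDI1 (-0.73 ± 0.05), FDPS (-0.60 ± 0.05) and MVK (-0.60 ± 0.06) were among those that fell. FDPS and MVK dropped inside the fold limit under upper-quartile factors (-0.55 each), library size alone (-0.54 each), MVK also under a filter of 1 CPM (-0.58), and with a library left out, FDPS without CBL0137 replicate 2 (-0.55) and MVK without CBL0137 replicate 1 (-0.55) or DMSO replicate 1 (-0.58). On log2(FPKM + 1), FDPS (-0.34) and MVK (-0.35) were inside the limit as well. SQLE, the squalene epoxidase, was lower inside the limit (-0.43 ± 0.04, edgeR adjusted p = 5.3e-09). Whether the sterol genes and the fatty acid enzymes differ in size of change was not tested.

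Lists for the use of fatty acids had medians nearer 0. Of 15 genes of glycerolipid assembly and lipid droplets, GPAT3 fell, PLIN2 rose and 13 were not called (median -0.16). Of all tested genes, 2.73% were called lower and 6.88% higher. With the fold limit set aside, 8 of the 15 were lower and 2 higher at an edgeR adjusted p under 0.05. The shares of all tested genes by that rule were 19.0% lower and 17.5% higher, with 32.2% lower among those averaging 20 CPM or more. GPAT3, an acyltransferase, measured 5.29 and 4.36 CPM in CBL0137, against 7.31 and 8.13 CPM in DMSO (-0.68 ± 0.16, edgeR adjusted p = 0.00136), and lost the call without CBL0137 replicate 2 (-0.55). PLIN2, a droplet coat protein, measured 4.38 and 4.32 CPM in CBL0137, against 3.50 and 2.22 CPM in DMSO (0.60 ± 0.22, edgeR adjusted p = 0.0325). That call did not hold with DESeq2 (adjusted p = 0.229), or without CBL0137 replicate 1 (0.59), CBL0137 replicate 2 (0.61) or DMSO replicate 2 (0.30). Of 23 genes listed for fatty acid oxidation, CPT1C rose, 0 fell and 22 were not called (median -0.08), and DESeq2 called 0 lower. At an unadjusted edgeR p under 0.05, 10 of the 23 were lower and 6 higher, against 22.8% and 22.0% of all tested genes. CPT1C, of the carnitine palmitoyltransferase family and found in neurons and some tumours, measured 24.4 and 26.1 CPM in CBL0137, against 16.2 and 14.7 CPM in DMSO (0.71 ± 0.09, edgeR adjusted p = 9.05e-07).

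Markers were read in the same libraries as a check of the label. All 8 Ewing sarcoma markers were detected, with a summed level from 5798 to 5800 CPM in CBL0137 and from 5936 to 5965 CPM in DMSO. Most of that sum came from CCND1 and CD99. EdgeR called 0 of the 8. With the fold limit set aside, 3 were higher and 2 lower at an edgeR adjusted p under 0.05, against 17.5% and 19.0% of all tested genes. Among 8 markers of adipocytes, a cell type rich in these enzymes, FABP4 and CIDEC had 0 counts in every library, and ADIPOQ and LEP at most 2. The summed level of the adipocyte list ran from 14.98 to 15.5 CPM in CBL0137 and from 14.0 to 15.6 CPM in DMSO, mostly from CFD and PLIN4. The 8 hepatocyte markers summed to 1.52 and 2.03 CPM in CBL0137 and 2.23 and 1.69 CPM in DMSO, with TTR, APOA2 and FGB at 0 counts in every library.

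Profiles like that of FASN, the enzyme with the smallest adjusted p, were sought among 11329 other tested genes that average 5 CPM or more. Likeness was the root mean square distance between log2 CPM values centred over the 4 libraries. The 5 nearest were BNIP1, PHGDH, KIFC1, IQGAP3 and CDCA3, at distances from 0.0271 to 0.0290. PHGDH, the first enzyme of serine synthesis, measured 194 and 196 CPM in CBL0137, against 352 and 347 CPM in DMSO. The mitotic kinesin gene KIFC1 measured 102 and 104 CPM in CBL0137, against 188 and 179 CPM in DMSO. With 4 libraries in 2 groups, likeness on this measure is mostly likeness of fold change.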

How the data were processed

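The deposited gene counts were made with Trim Galore, HISAT2 to hg19 and HTSeq 0.11.1, per the submitters' processing notes, which also name DESeq2 1.26.0; no source used here names the annotation release or strandedness. The deposited FPKM was computed from mapped reads, gene length and depth, per the labels, with no tool named. The table's 5 HTSeq summary rows (23.7% to 24.8% of reads) and 1 leftover header row stayed out. Ensembl IDs were named from GENCODE 44 lifted to GRCh37 (hg19), which matched 58524 and left 2093 unnamed.

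Groups came from sample titles. The test was edgeR 4.0.16 in R 4.3.3 with TMM factors, genes kept by filterByExpr (minimum count 10) and a quasi-likelihood F test, Benjamini-Hochberg adjusted over all genes tested. The SE is the log2 fold change divided by the square root of F. The common biological coefficient of variation was 3.18%, and with 2 libraries a group precision is poor at low counts. The test was first tried on simulated data. Alternatives were other factors and filters, DESeq2 1.42.0, limma 3.58.1 (voom, and trend on FPKM), glmTreat, a fold limit of 2 or none, a replicate block, leaving out each replicate and, chosen after seeing the data, CPM per kilobase. Enzymes and lists were chosen with earlier results of these data known. Named genes are the 10 enzymes, SREBF1, SREBF2, HMGCS1, SQLE and, per list, called genes (up to 6) or else the 3 with the smallest adjusted p; some genes the rule names are not reported here. Neighbours of FADS1 and FADS2, and members at 0 counts, were named by position or level after values were seen. Lists were described by counts and medians, with no set test.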

Additional observations from a re-analysis of the deposited data

How the results depend on the processing

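FASN and ACSS2 were the 2 enzymes called lower under each other scaling, each other count filter, DESeq2, limma-voom, the replicate block and each replicate left out. Of 17309 tested genes, 472 (2.73%) were called lower and 1191 (6.88%) higher. Over the 8 other lipid lists, 9 genes were called lower and 3 higher. Of the 9 lower, 7 came from the list of 21 sterol genes, 1 from the regulators and 1 from glycerolipid assembly. Limma-trend on log2(FPKM + 1) called 189 genes lower and 388 higher, and 1 enzyme, FASN. With a pseudocount of 0.1 it called 237 lower and 489 higher, and again 1 enzyme. DESeq2 called 596 genes higher. With glmTreat against a fold of 1.2, 883 genes, 5 enzymes and 22 list genes were lower, 14 of the list genes being sterol genes. With no fold limit, 3292 genes (19.0%), 9 enzymes and 50 list genes were lower, 18 of the list genes being sterol genes. By the same rule 3022 genes (17.5%) and 14 list genes were higher. With a fold above 2, 131 genes were lower and 605 higher, with 0 enzymes lower, and 0 list genes in either direction. Leaving out a replicate gave from 8 to 14 list genes lower, the highest without DMSO replicate 2. ACACA turned to 0.16 and 0.20, ACSL3 to 0.03 and 0.03, and ACSL4 to 0.09 and 0.11 on log2(FPKM + 1) and log2(FPKM + 0.1), and the cause was not tested. By CPM per kilobase of merged exons, 2 of the 10 enzymes kept their place in the order of levels. Upper-quartile factors and library size alone moved the median of all genes to 0.051 and 0.065. Same-numbered libraries did not deviate together over genes (correlation -0.000133). With 2 libraries a group this cannot decide whether they were paired in culture or processing, and the labels do not say. The replicate block gave 448 genes lower, 1128 higher and 2 enzymes lower.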
